A study of Homo sapiens with 8 samples.

Results

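143B cells labelled sgNAT10 were compared with HOS cells labelled sgNAT10, to ask which expression differences between these human osteosarcoma lines remained under this label and whether the lines were closer to each other than in control cells. The comparison used 4 of the 8 libraries of the study, 2 from each line, chosen by their labels. Its genes were the 11807 listed in both deposited tables, of 13703 listed in either, joined by symbol. The submitters describe the sgNAT10 cells as knockout cells, in which a guide directed against NAT10 had been used. The control cells of both lines are labelled NC, with 2 libraries a line, and they supply the control line difference. All cells are established lines sequenced as polyadenylated RNA. The labels name no number of guides and no clone, and do not state whether replicate libraries are separate cultures. P-values therefore reflect the variation among these libraries only, and that variation may be technical.

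NAT10 encodes the acetyltransferase that places N4-acetylcytidine on ribosomal, transfer and messenger RNA. HOS is a line from a human osteosarcoma, and 143B was derived from HOS by oncogenic transformation and selected for loss of thymidine kinase activity, so the lines share an origin. Signalling through the RAS-ERK kinase cascade switches on early response genes, proteases and its own feedback inhibitors. Osteosarcoma cells in general can secrete bone matrix, of which type I collagen is the main protein.

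Values are FPKM, fragments per kilobase of transcript scaled to a library's mapped fragments, further scaled here by median ratios among the libraries compared. A line difference is the 143B mean minus the HOS mean of log2(scaled FPKM + 1), which understates the differences of genes with low values. A gene was called when limma's adjusted p was under 0.05 and the difference was at least 1 on the log2 scale, that is 2-fold. Each line has its own deposited table, so the line and the table are the same split and cannot be told apart. The median FPKM of the joined genes was 4.94 and 5.99 in the 143B sgNAT10 libraries against 12.15 and 11.97 in the HOS sgNAT10 libraries. Cytosolic ribosomal protein genes held 40.7% and 42.0% of the summed FPKM in the former and 20.5% and 21.2% in the latter, against 25.4% to 28.3% in the 4 NC libraries. Without the median-ratio scaling the median line difference over all genes moved from 0.00 to -0.77, and with libraries set to a common sum it was -1.32, so every direction below is relative to the median gene. No read counts were available, so the depth behind these values is unknown.

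NAT10 itself (chr11:34105602-34147670, GRCh38) stood at 13.4 and 9.09 scaled FPKM in the 143B sgNAT10 libraries and at 15.2 and 13.9 in the HOS sgNAT10 libraries. All 4 libraries thus retained NAT10 transcript, with both 143B values under both HOS values. Its line difference was -0.37 (SE 0.21, limma adjusted p = 0.15) and was not called. In the NC libraries, on the scale of all 8 libraries, NAT10 stood at 21.2 and 19.2 in 143B and at 13.1 and 14.1 in HOS. The HOS sgNAT10 libraries, at 15.3 and 13.9 on that scale, did not lie below the HOS NC libraries, whereas the 143B sgNAT10 libraries, at 13.5 and 9.15, lay below the 143B NC libraries. A transcript level does not measure the protein, and for HOS the label is therefore used here only as a label.

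Under sgNAT10, 5210 of the 11394 genes tested differed between the lines (45.7%), 2784 higher in 143B (24.4%) and 2426 lower (21.3%). Of these, 1579 differed at least 4-fold and 76 at least 16-fold, and 60 of the 76 were higher in 143B. In all, 5211 genes differed at least 2-fold with no overlap of libraries between lines. The split between directions depends on the scaling, with 1296 higher and 4892 lower when the FPKM were taken as deposited, and 630 higher and 6926 lower with libraries set to a common sum.

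**Figure D1:**
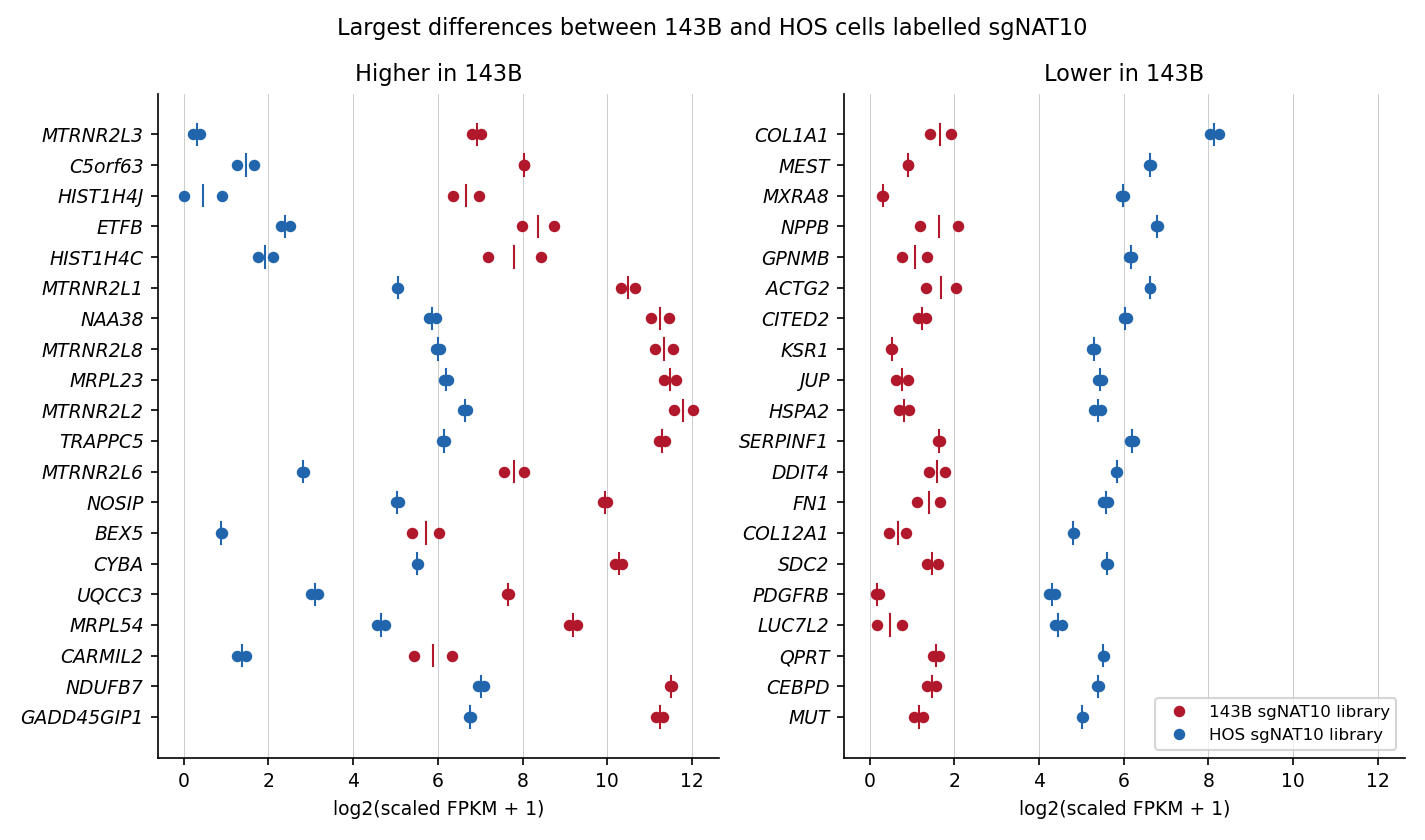
Each point is 1 sgNAT10 library, placed by log2(scaled FPKM + 1), for the 20 called genes with the largest differences in each direction; red is 143B, blue is HOS, and the vertical ticks are group means. Genes were chosen among those whose libraries did not overlap between lines, so their separation is no result. Most of the genes lower in 143B lie near or under 2 there.

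The gene with the largest called deficit in 143B was COL1A1. COL1A1 (chr17:50183289-50201632), the gene of the alpha 1 chain of type I collagen, stood at 2.77 and 1.67 scaled FPKM in 143B and at 304 and 259.5 in HOS. Its libraries did not overlap between lines, which was a condition for the largest genes. The line difference was -6.47 (SE 0.22, limma adjusted p = 2.4e-05). In NC cells the COL1A1 difference was -5.59, and the difference between the labels, -0.86, was not called.

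Of the 39 genes on the list of collagens and matrix proteins, 27 were tested. Of these 19 were lower in 143B and 1 higher, beside 21.3% and 24.4% of all genes. The median line difference was -1.84, beside 0.00 over all genes. FN1, which encodes fibronectin, stood at 1.19 and 2.16 in 143B and at 48.4 and 44.8 in HOS, a difference of -4.18 (SE 0.21). COL12A1, COL5A1 and FBN2, encoding 2 fibril-associated or fibrillar collagens and a fibrillin, differed by -4.15, -3.29 and -2.86. SPARC, a collagen-binding protein of mineralizing matrix, stood at 24.0 and 27.5 in 143B against 220.6 and 222.6 in HOS, a difference of -3.06. None of these pairs of groups overlapped. The list's counts were 0 higher and 21 lower once values were adjusted for the length and GC content of transcripts, where 19.6% of all genes were higher and 18.6% lower. Between 17 and 20 were lower when any 1 sgNAT10 library was left out.

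A further 8 members of the list were listed in the HOS table alone, namely COL1A2, COL3A1, COL7A1, COL11A1, COL16A1, FBN1, LUM and DCN, and 0 in the 143B table alone. COL1A2, which encodes the partner chain of type I collagen, had 119 and 113 deposited FPKM in the HOS sgNAT10 libraries, and COL3A1 had 111 and 112. These were the highest of the 1003 genes found only in the HOS table, of which 29 had a mean of at least 10 FPKM under sgNAT10. The 143B table alone held 893 genes, of which 2 reached that level, NTSR1 (a neurotensin receptor) with 30.9 and 25.9 FPKM and PLD4 (a phospholipase D family member) with 14.7 and 18.2. Genes are listed where 2 or more libraries of a table exceed 0.5 FPKM, so absence from it is no measured value and no fold is given.

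Receptors for growth factors and for the matrix are described next. PDGFRB, a receptor of platelet-derived growth factor found on mesenchymal cells, stood at 0.163 and 0.114 in 143B and at 19.7 and 17.8 in HOS, a difference of -4.12 (SE 0.14). Its ligand gene PDGFB differed by -2.45. Of 23 tested growth factor and receptor genes outside the EGF family, 11 were lower in 143B, among them VEGFA (-2.21) and IGF1R (-2.05). In the same list 4 were higher, led by IGFBP3 (2.0). Over all genes 21.3% were lower and 24.4% higher. With either HOS sgNAT10 library left out, 20 genes of this list passed the filter. Of the 13 integrin genes tested, 7 were lower and 0 higher, with ITGAV and ITGA11, subunits of vitronectin and collagen receptors, at -2.85 each. With either HOS sgNAT10 library left out, 8 integrin genes passed the filter and 4 were lower, since a gene at 1 FPKM or more in HOS alone then no longer met the filter of 2 libraries. SDC2, a heparan sulfate proteoglycan of the cell surface, differed by -4.13 and MXRA8, a matrix remodelling-associated membrane protein, by -5.67.

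The osteoblast list was led by ALPL and BMP4. ALPL, the tissue-nonspecific alkaline phosphatase that marks osteoblasts, stood at 0.919 and 0.556 in 143B and at 11.7 and 10.9 in HOS, a difference of -2.83 (SE 0.16). RUNX2, the master transcription factor of osteoblasts, stood at 0.549 and 0.935 against 6.34 and 6.82, a difference of -2.13, and BMP4 differed by -2.33. Both lines were thus separated at each of these genes, and HOS held the higher values. Over the list, 7 of 13 tested members were lower and 2 were higher, beside 21.3% and 24.4% of all genes. The 2 were DLX5 (1.10) and MSX1 (1.43), the latter turning to -0.12 with libraries set to a common sum. After the length and GC correction 6 were lower and 0 higher, beside 18.6% and 19.6% of all genes, with DLX5 at 0.35 and MSX1 at 0.45. Leaving out HOS sgNAT10 replicate 1 or replicate 2 left 10 members tested, with 3 and 2 lower, and without either 143B sgNAT10 library 1 of 11 was higher. Of 22 osteoblast markers 14 were listed in 143B and 13 in HOS. Their summed deposited FPKM under sgNAT10 were 202 to 214 and 483 to 484, mostly from ATF4, which is not specific to bone. These sums are without the median-ratio scaling, which divided values by 0.67 and 0.79 in 143B and by 1.39 and 1.37 in HOS. In bulk samples fewer cells of a type and less RNA per cell cannot be told apart.

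Among 14 tested factors and markers of mesenchymal transition, 8 were lower in 143B and 2 higher, beside 21.3% and 24.4% of all genes. In NC cells 8 were lower and 3 higher, beside 25.3% and 28.8% of all genes. S100A4, a calcium-binding protein of motile mesenchymal cells, stood at 9.07 and 8.58 in 143B against 129.7 and 143.8 in HOS, a difference of -3.81 (SE 0.16). SNAI2 differed by -2.22, and the snail factor SNAI1 by -1.68. TPM2 went the other way, at 1.47 to 2.12 with 1 sgNAT10 library left out, though it was -0.061 under quantile normalization. ACTA2 differed by -2.06 and its relative ACTG2 by -4.94. Both are smooth muscle actin genes with close paralogs, so reads could have been divided between copies and these values are uncertain.

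Other large deficits in 143B fell outside those lists. MEST (chr7:130486171-130506465), an imprinted gene of mesoderm, stood at 0.875 and 0.885 in 143B and at 95.2 and 98.6 in HOS, a difference of -5.70 (SE 0.15). NPPB, which encodes brain natriuretic peptide, differed by -5.15 and GPNMB, a glycoprotein first known from osteoblasts and melanocytes, by -5.10. SERPINF1, the gene of pigment epithelium-derived factor, differed by -4.55. The remaining genes among the 20 lowest were CITED2, KSR1, JUP, HSPA2, DDIT4, LUC7L2, QPRT, CEBPD and MUT, at -4.79 to -3.86. KSR1 is a scaffold of the RAF-MEK-ERK cascade, and stood at 0.430 and 0.455 in 143B against 39.0 and 37.1 in HOS.

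Among the genes with the largest excess in 143B was ETFB (chr19:51345169-51366418), the beta subunit of the electron transfer flavoprotein, at 424.5 and 252.7 scaled FPKM against 3.94 and 4.67 in HOS. The libraries did not overlap, again a condition of the choice. The difference was 5.96 (SE 0.26, limma adjusted p = 2.8e-05), beside 5.62 in NC cells and 6.33 after the length and GC correction. C5orf63 (chr5:127042558-127073492), an uncharacterized gene, stood at 260.5 and 259.0 against 1.38 and 2.19, a difference of 6.57 (SE 0.19), with 1.64 in NC cells.

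The MTRNR2L genes are nuclear copies of the mitochondrial 16S ribosomal RNA region that encodes the peptide humanin. All 8 tested MTRNR2L genes were higher in 143B under sgNAT10, with a median difference of 5.08. MTRNR2L8 stood at 3006 and 2234 in 143B and at 65.8 and 60.9 in HOS. In NC cells 0 of the 8 were higher in 143B and 5 were lower, with a median of -1.07, where 54.1% of all genes were called, 28.8% higher and 25.3% lower. The length and GC correction left 6 members tested. In NC 1 of these was then higher and 0 lower, with a median of 0.23, beside 10.9% and 10.2% of all genes. Under sgNAT10 all 6 were higher, with a median of 4.89, beside 19.6% of all genes. The copies are close to each other and to the mitochondrial RNA itself, so the assignment of reads among them is uncertain. The same holds for HIST1H4J and HIST1H4C, replication-dependent histone H4 genes with near-identical coding sequence, at 6.21 and 5.87, the former listed at 0 in HOS sgNAT10 replicate 2. Their transcripts as a rule carry no poly(A) tail.

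Other genes among the 20 highest were NAA38 (5.37), MRPL23 (5.28), TRAPPC5 (5.15), NOSIP (4.90), CYBA (4.75), BEX5 (4.82), CARMIL2 (4.52), UQCC3 (4.57), MRPL54 (4.54), NDUFB7 (4.48) and GADD45GIP1 (4.47). NDUFB7, a subunit of respiratory complex I, stood at 2833 and 2949 in 143B against 122.8 and 134.7 in HOS. The correction for length and GC lowered its difference to 2.12 and that of MRPL54 to 2.54, still called, while TRAPPC5 moved to 5.04.

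Of the 63 cytosolic ribosomal protein genes, 52 were higher in 143B under sgNAT10 and 0 lower, with a median of 2.30. Over all genes under sgNAT10, 24.4% were higher and 21.3% lower. RPL35, a protein of the large ribosomal subunit, reached 30840 and 29900 scaled FPKM in 143B against 1382 and 1430 in HOS, a difference of 4.43 (SE 0.17). The count was 38 higher and 1 lower after the length and GC correction, beside 19.6% and 18.6% of all genes, with a median of 1.36. It was 19 higher and 11 lower under quantile normalization, with a median of -0.10, a scaling that sets the highest values of every library equal. Of all 11459 genes tested under that scaling, 2446 were higher and 2407 lower. Of the 26 tested respiratory chain genes 12 were higher and 4 lower, with CYC1 at 3.94 and COX5B at 3.78, and 3 higher and 6 lower under quantile normalization. In NC cells 16 of the 63 ribosomal protein genes were higher and 11 lower, beside 28.8% and 25.3% of all genes, with a median of 0.43.

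Transcript composition moved with the line difference in both labels. Over genes in the lowest quintile of GC content, 30.2% to 41.2%, the median line difference under sgNAT10 was -0.57, and over the highest quintile, 58.8% to 75.3%, it was 1.02. The corresponding medians in NC cells were -1.28 and 1.64. Within the highest quintile 1140 genes were higher in 143B under sgNAT10 (50.6%) and 163 lower (7.23%). Over the shortest quintile of transcripts, up to 1922 bases, the median was 0.92, and over the longest, from 5688 bases, it was -0.48. GC content and length thus moved with the direction of a gene, and their part in the single differences was not tested beyond the correction. After it, 4307 of 11274 genes were called (38.2%), and of the 5138 called genes with a corrected value 3268 were called in the same direction (63.6%) and 92 changed sign.

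**Figure D2:**
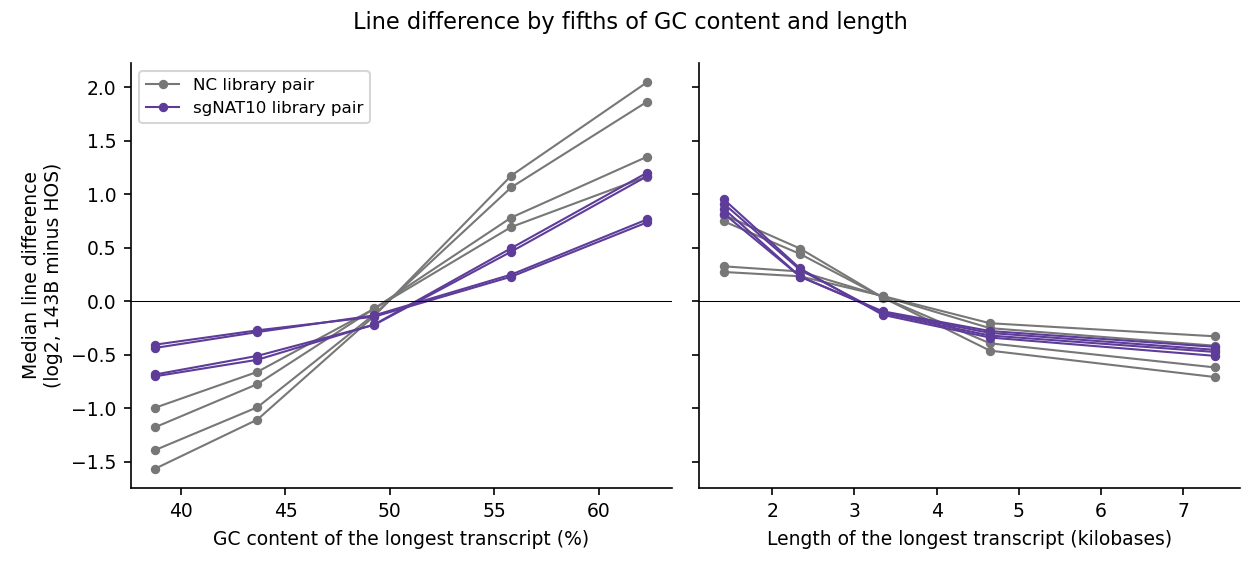
Median line difference (log2, 143B minus HOS) of genes in quintiles of GC content (left, percent) and of length (right, kilobases) for each of the 4 pairs of a 143B and a HOS library under each label, NC in grey and sgNAT10 in purple. In the highest GC quintile the sgNAT10 pairs lie between 0.74 and 1.20 and the NC pairs between 1.17 and 2.05, and in the lowest quintile the sgNAT10 pairs lie nearer to 0.

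Line differences under both labels were numerous. Of 11111 genes tested under both, 3097 (27.9%) were called in the same direction under sgNAT10 and in NC cells, 1788 higher in 143B and 1309 lower. They made up 60.7% of the calls under sgNAT10 and 51.1% of the NC calls. Another 194 genes (1.75%) were called in opposite directions. After the length and GC correction 1279 of 11010 genes were called in the same direction under both labels, 30.6% of the sgNAT10 calls and 55.4% of the NC calls.

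The largest differences present under both labels were led by ETFB on the higher side and COL1A1 on the lower. RAC2 (chr22:37225261-37244448), a small GTPase best known from blood cells, stood at 68.7 and 59.6 scaled FPKM in 143B and at 3.77 and 3.49 in HOS under sgNAT10. Its difference was 3.81 under sgNAT10 and 6.85 in NC cells, and the difference between labels, -3.01, was called. Other genes higher in 143B under both labels were EGFL7 (4.05 under sgNAT10, 3.70 in NC), LY6K (3.68 and 3.72), TIE1 (3.66 and 5.23), ID3 (3.60 and 3.79), SPHK1 (3.58 and 3.70) and PLPP2 (3.47 and 5.10). ID3 is an inhibitor of helix-loop-helix transcription factors and SPHK1 makes sphingosine 1-phosphate.

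Genes lower in 143B under both labels included GPNMB (-5.10 under sgNAT10, -4.71 in NC), MXRA8 (-5.67 and -5.10), SERPINF1 (-4.55 and -4.86), SDC2 (-4.13 and -4.43), S100A4 (-3.81 and -4.78), TNNT2 (-3.80 and -5.12) and QPRT (-3.94 and -3.57). Among these 7 the difference between labels was called for TNNT2 alone, at 1.33. MUT, the mitochondrial methylmalonyl-CoA mutase, differed by -3.86 under sgNAT10 and -4.25 in NC cells.

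TK1, the cytosolic thymidine kinase gene, singled out after its values were seen, stood on the scale of all 8 libraries at 139 and 125 in 143B against 47.6 and 46.9 in HOS under sgNAT10. The libraries did not overlap between lines, and the difference was 1.46, which became 0.17 and was not called after the length and GC correction.

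**Figure D3:**
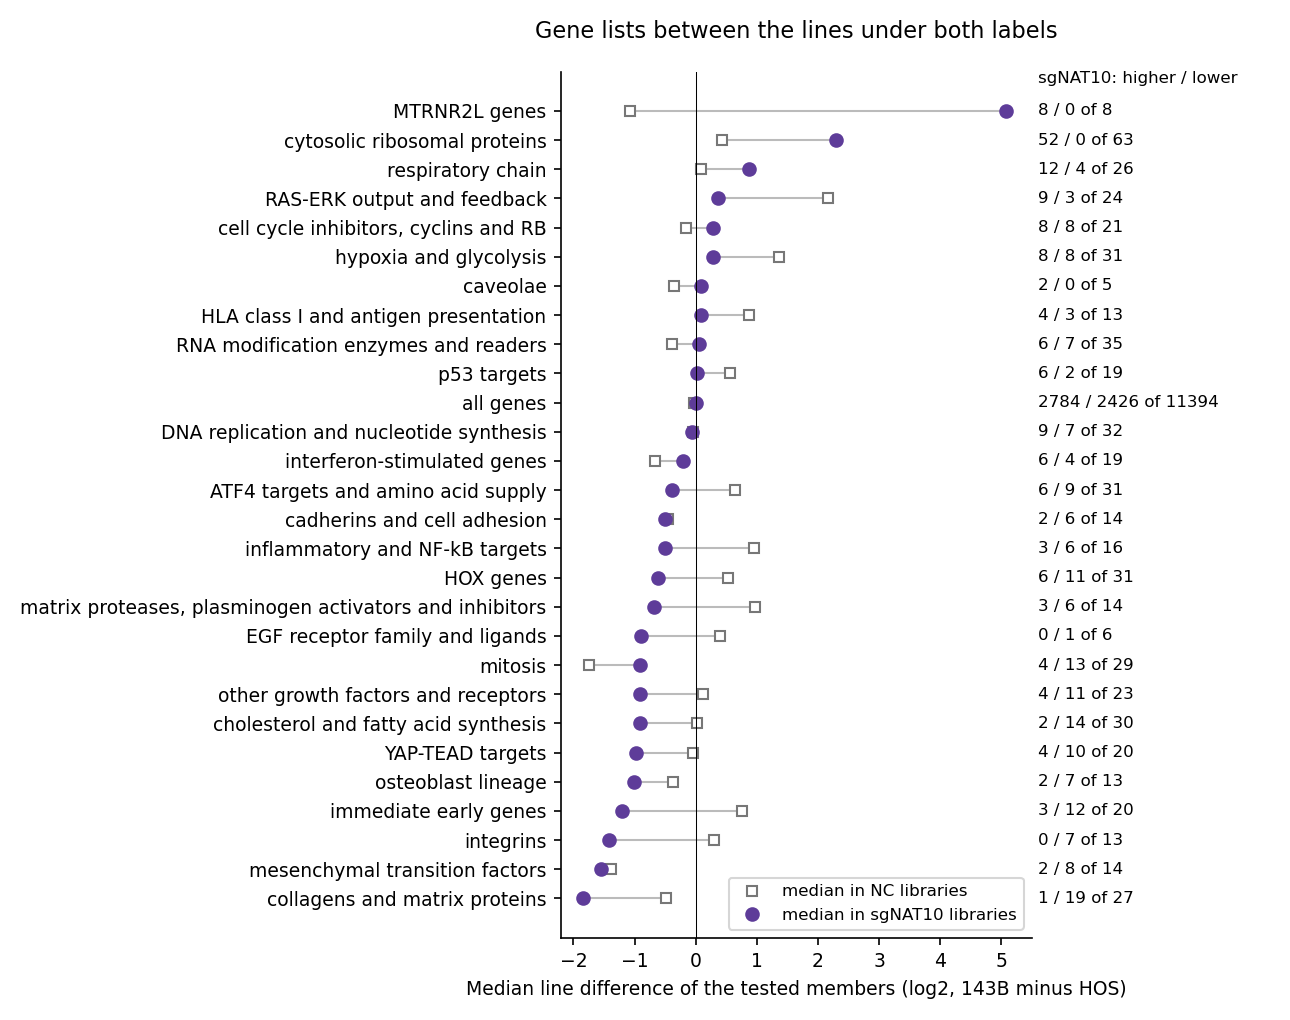
Median line difference (log2, 143B minus HOS) of the tested members of each gene list in NC libraries (open squares) and sgNAT10 libraries (filled circles), with the counts of members called higher and lower under sgNAT10 at the right. The RAS-ERK list lies at 2.17 in NC and 0.37 under sgNAT10, the immediate early genes at 0.76 and -1.20, and the collagens at -0.49 and -1.84.

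Whether the lines were closer under sgNAT10 was first read from the whole profile. Over 11656 genes the root mean square line difference of the 4 pairs of sgNAT10 libraries was 1.46, 1.46, 1.30 and 1.29, with a mean of 1.38. The 4 NC pairs gave 1.64, 1.52, 1.25 and 1.15, with a mean of 1.39. The ranges overlapped, and the sgNAT10 pairs lay inside the NC range. Distances of group means less the part expected from replicate spread were 1.35 for both labels. Pearson correlations were 0.773 to 0.812 between sgNAT10 lines and 0.709 to 0.831 between NC lines.

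With length and GC corrected, the order was clear of overlap. The sgNAT10 pairs lay 1.15 to 1.25 apart and the NC pairs 0.833 to 0.991 apart, so that the lines were farther from each other under sgNAT10 in every pair. The share of genes at least 2-fold apart was then 35.7% to 41.1% under sgNAT10 and 17.6% to 27.5% in NC. Libraries set to a common sum put the sgNAT10 pairs at 1.67 to 1.92 and the NC pairs at 1.17 to 1.70. Under quantile normalization the sgNAT10 pairs lay at 1.22 to 1.34, with a mean of 1.28, and the NC pairs at 1.15 to 1.501, with a mean of 1.32. The pairs share libraries and there were 2 libraries a group, so these ranges are descriptions with no test. Within a group the libraries lay 0.124 apart in HOS sgNAT10, 0.190 in HOS NC, 0.403 in 143B sgNAT10 and 0.525 in 143B NC.

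**Figure D4:**
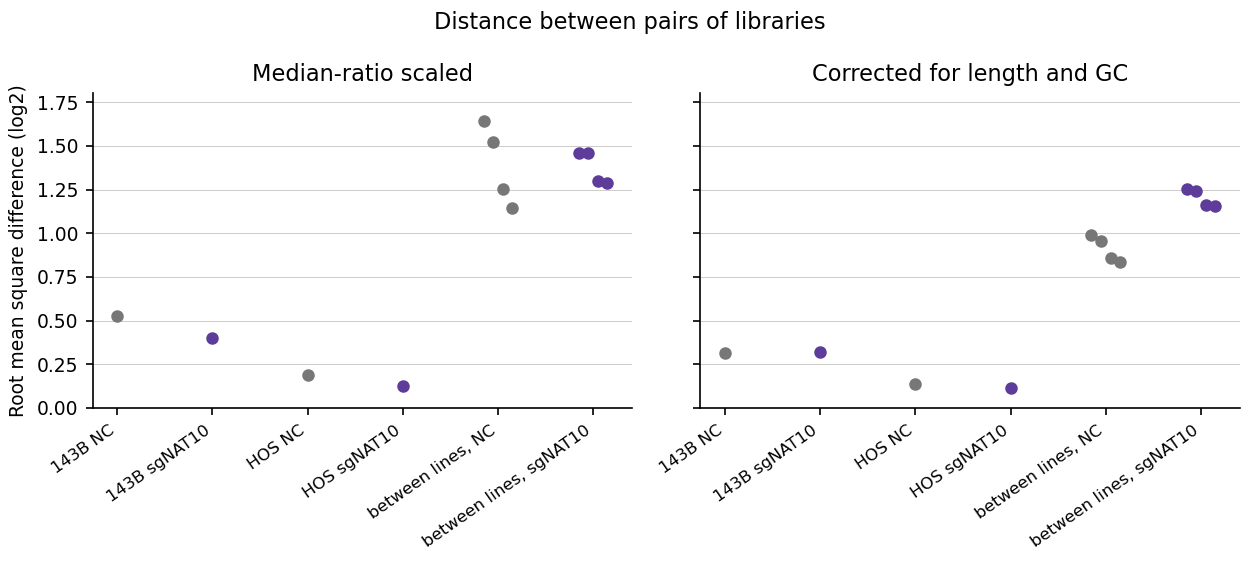
Root mean square difference (log2) between the libraries of each group and between the lines, 1 point per pair, with median-ratio scaled values (left) and with length and GC corrected values (right). On the left the sgNAT10 pairs between lines (1.29 to 1.46) lie within the range of the NC pairs (1.15 to 1.64), and on the right they lie above it.

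Counts of calls depended on the correction too. Between NC lines 6141 of 11349 genes were called (54.1%), more than the 5210 under sgNAT10, and after the correction 2373 of 11240 (21.1%, with 10.9% higher and 10.2% lower), fewer than the 4307 under sgNAT10. Without the correction, leaving out 1 library gave 3995 (HOS NC replicate 1) to 6641 calls in NC and 4717 to 5552 under sgNAT10, so the order was not kept. It also turned with adjusted p alone, 8420 in NC and 8528 under sgNAT10, and with libraries set to a common sum, 6293 and 7556. In the corrected fits, leaving out any 1 library gave 1917 to 2696 calls in NC and 3867 to 4481 under sgNAT10. The difference of the line differences, sgNAT10 minus NC, was tested with all 8 libraries and equals the difference of the changes within each table. It was called for 4550 of 11656 genes (39.0%), 2346 more positive under sgNAT10 (20.1%) and 2204 more negative (18.9%). The absolute line difference was smaller under sgNAT10 for 2464 of them and larger for 2086. After the correction it was smaller for 912 and larger for 2453.

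**Figure D5:**
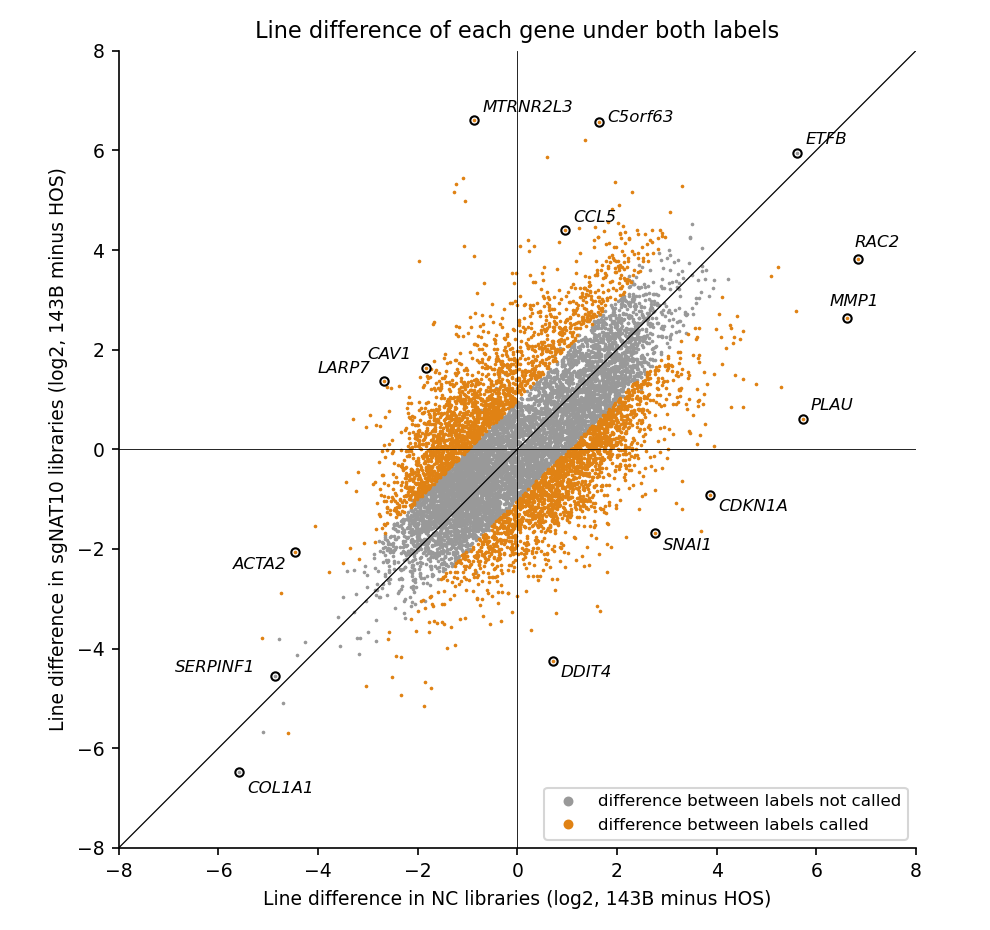
Each point is a gene, placed by its line difference in NC libraries (horizontal) and in sgNAT10 libraries (vertical), both log2 and 143B minus HOS; orange marks genes whose difference between labels was called and the diagonal marks equal differences. COL1A1, SERPINF1 and ETFB lie near the diagonal, PLAU and MMP1 lie far to the right of it, and MTRNR2L3 and DDIT4 lie far above and below it.

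The outputs of RAS-ERK signalling separated the lines less under sgNAT10. Of 24 listed output and feedback genes, 19 were higher in 143B and 1 lower in NC cells, beside 28.8% and 25.3% of all genes. The median in NC was 2.17. Under sgNAT10 9 were higher and 3 lower, beside 24.4% and 21.3% of all genes, with a median of 0.37. Between labels the difference was called negative for 15 of the 24 and positive for 1, ETV1, beside 18.9% and 20.1% of all genes. Its median was -1.82, beside 0.04 over all genes. It was called negative for 15 and positive for 0 after the length and GC correction, beside 14.3% and 14.9% of all genes, and for 15 or 16 with any 1 library left out. The sgNAT10 counts themselves became 4 higher and 7 lower with FPKM as deposited, and 3 higher and 12 lower with libraries set to a common sum.

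Single members showed both patterns, described on the scale of all 8 libraries and chosen after their values were seen except where they lead the list. SPRY4, an inhibitor of receptor tyrosine kinase signalling induced by ERK, stood at 24.9 and 32.6 in the 143B NC libraries and at 0.934 and 0.928 in the HOS NC libraries. Under sgNAT10 it stood at 4.38 and 4.47 in 143B and at 4.40 and 3.95 in HOS. The NC groups were far apart and the sgNAT10 groups overlapped, and the difference between labels was -3.86 (SE 0.26, limma adjusted p = 1.2e-05). PHLDA1 behaved alike, with line differences of 3.66 in NC and 0.28 under sgNAT10, as did the phosphatase gene DUSP4 with 2.08 and -0.02.

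DUSP6, a phosphatase that inactivates ERK, stood at 55.3 and 65.4 in 143B against 7.28 and 6.39 in HOS in NC cells, and at 26.9 and 29.3 against 11.0 and 11.7 under sgNAT10. Its difference was thus smaller but still called under sgNAT10, 1.23 after 2.99. FOSL1, the AP-1 subunit FRA1, differed by 4.34 in NC and 2.26 under sgNAT10. ETV4, KCNN4, HMGA2 and CCND1 differed by 3.5, 3.40, 2.88 and 1.67 under sgNAT10 and by 3.51, 3.62, 2.27 and 1.65 in NC cells, with no called difference between labels. The CCND1 difference under sgNAT10 was 0.35 under quantile normalization and was then not called. SPRED2 was lower in 143B under sgNAT10 (-2.11) and did not differ by call in NC (0.02). LIF, a cytokine, was listed at 0 in both 143B sgNAT10 libraries and at 3.04 and 3.23 in HOS.

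The EGF receptor family and its ligands had 6 tested genes. Of these 1, the feedback inhibitor ERRFI1, was lower in 143B under sgNAT10 (-1.54), and 0 higher, beside 21.3% and 24.4% of all genes. Without 143B sgNAT10 replicate 2, 4 of the 6 were lower. EGFR differed by -0.94 and HBEGF by -1.0, neither called. The difference between labels was negative for 4 of the 6, led by ERRFI1 (-2.97), beside 18.9% of all genes. After the length and GC correction 3 of the 6 were lower under sgNAT10, beside 18.6% of all genes. The difference between labels was then negative for 3, beside 14.3% of all genes.

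Proteases and the plasminogen system, which open the matrix to invading cells, had 14 tested members. In NC cells 7 were higher in 143B and 2 lower, beside 28.8% and 25.3% of all genes, and under sgNAT10 3 were higher and 6 lower, beside 24.4% and 21.3%. Between labels the difference was negative for 10 of the 14 and positive for 0, beside 18.9% and 20.1% of all genes. PLAU (chr10:73909177-73917497), the urokinase plasminogen activator, stood at 550.2 and 477 in the 143B NC libraries against 8.57 and 9.15 in HOS NC. Under sgNAT10 it stood at 46.2 and 44.3 in 143B and at 29.6 and 28.7 in HOS. In both labels the 143B libraries were the higher, but the line difference was 5.73 in NC and 0.61 under sgNAT10, where it was not called and turned to -0.28 with FPKM as deposited and -0.95 with libraries set to a common sum. The difference between labels was -5.09 (SE 0.28, limma adjusted p = 5e-06).

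MMP1 (chr11:102789920-102798160), an interstitial collagenase, stood at 615 and 793 in 143B NC against 7.09 and 5.54 in HOS NC, and at 185 and 305 against 36.2 and 38.6 under sgNAT10. It kept a called line difference of 2.63 (SE 0.26) under sgNAT10, with a difference between labels of -3.95. PLAT, the tissue plasminogen activator, changed side, from 1.65 in NC to -3.24 under sgNAT10, with 1.91 and 1.57 in 143B against 25.6 and 24.1 in HOS. The inhibitors TIMP2 and TIMP3 and the protease ADAMTS1 were lower in 143B under sgNAT10, at -2.96, -1.98 and -3.00. Of these TIMP2 had been lower in NC cells too, at -1.75.

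Immediate early genes, which encode transcription factors and inhibitors switched on soon after a growth signal, were lower in 143B under sgNAT10 for 12 of 20 tested and higher for 3, with a median of -1.20. In NC cells 8 of 19 tested were higher in 143B and 0 lower, with a median of 0.76. After the length and GC correction 5 were higher and 2 lower in NC, beside 10.9% and 10.2% of all genes, with a median of 0.44. Over all genes, 24.4% were higher and 21.3% lower under sgNAT10, and 28.8% and 25.3% in NC. The difference between labels was called negative for 18.9% of all genes and positive for 20.1%. Between labels the difference was called negative for 19 of the 20 and positive for 1, KLF6, and these counts were unchanged with any 1 of the 8 libraries left out and under each of the other 3 scalings, while the correction for length and GC gave 16 and 1. With either HOS sgNAT10 library left out, 15 members passed the filter under sgNAT10 and 7 were lower.

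EGR1 (chr5:138465490-138469315), a zinc finger factor induced through ERK and serum response factor, is a member of the list. Its promoter is shown because EGR1 was the only 1 of the 16 immediate early genes with a promoter in the RefSeq table that held a CArG box, the element bound by serum response factor. The window is chr5:138465229-138465528 on the plus strand of GRCh38.p14, 250 bases before to 50 after the RefSeq start, with the 2 CArG boxes in capitals.

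EGR1: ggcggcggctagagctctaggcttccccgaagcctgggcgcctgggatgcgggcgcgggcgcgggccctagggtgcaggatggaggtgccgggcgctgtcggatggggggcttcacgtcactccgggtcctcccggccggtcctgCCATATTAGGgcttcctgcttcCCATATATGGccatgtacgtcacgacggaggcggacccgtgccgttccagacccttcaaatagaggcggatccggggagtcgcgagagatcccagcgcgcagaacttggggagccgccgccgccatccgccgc

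The boxes begin 105 and 83 bases before the start. CArG boxes, searched on both strands, were present in 454 of 35116 RefSeq promoters of this length (1.29%). The AP-1 site TGANTCA, also searched on both strands, was in 2707 promoters (7.71%), in 1 of the 16 immediate early promoters (FOSL2) and in 2 of the 15 RAS-ERK promoters (SPRED3 and EMP1). A match describes letters in a window and not a site in use.

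EGR1 stood at 16.3 and 22.6 in 143B NC and at 17.1 and 17.2 in HOS NC, where the groups overlapped. Under sgNAT10 it stood at 2.74 and 3.86 in 143B and at 10.9 and 9.88 in HOS, with 143B below HOS. The line difference was -1.42 under sgNAT10 and the difference between labels was -1.57 (SE 0.31, limma adjusted p = 0.0021). FOS, the partner of JUN in AP-1, was listed at 0 in 143B sgNAT10 replicate 1 and at 0.267 in replicate 2, against 8.70 and 8.99 in HOS. Its line difference was -3.13 under sgNAT10.

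MYC stood at 4.83 and 5.33 in 143B NC against 1.21 and 1.20 in HOS NC, and at 0.313 and 0.547 against 4.12 and 3.34 under sgNAT10. The order of the lines was thus opposite under the 2 labels, with line differences of 1.48 in NC and -1.73 under sgNAT10. JUN differed by 2.91 in NC and by -0.37 under sgNAT10, not called. KLF6, a zinc finger factor, was the exception, at 149.5 and 117.8 in 143B sgNAT10 against 17.0 and 18.1 in 143B NC, and at 11.99 to 19.97 in the 4 HOS libraries. Both 143B sgNAT10 libraries were above the other 6, and the line difference was 2.67 under sgNAT10 and 0.45 in NC. ATF3 and CYR61 differed by -2.56 and -1.99 under sgNAT10.

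Inflammatory and NF-kB target genes had 8 of 17 members higher in 143B in NC cells and 0 lower, beside 28.8% and 25.3% of all genes. Under sgNAT10 3 of 16 were higher and 6 lower, beside 24.4% and 21.3%. The difference between labels was negative for 13 of 18 and positive for 2, beside 18.9% and 20.1% of all genes. CCL5, a chemokine, was higher in 143B under sgNAT10, at 55.9 and 44.2 against 1.36 and 1.44 in HOS, a difference of 4.40 (SE 0.17), beside 0.95 in NC, not called. ICAM1, CCL2 and CSF1 were lower, at -2.62, -2.49 and -2.09. With either HOS sgNAT10 library left out, 9 members were tested and 0 were lower, since those at 1 FPKM or more in HOS alone no longer met the filter.

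Several genes had large differences between labels. CDKN1A, which encodes the cyclin-dependent kinase inhibitor p21, stood at 147 and 99.8 in 143B NC and at 7.30 and 7.65 in HOS NC. Under sgNAT10 it stood at 9.85 and 8.49 in 143B and at 18.6 and 17.5 in HOS. The order of the lines was opposite, with 3.88 in NC and -0.91 under sgNAT10, short of the 2-fold threshold, and the difference between labels was -4.76 (SE 0.32). Without 143B sgNAT10 replicate 1 the sgNAT10 difference was -1.01 and was called.

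DDIT4 (chr10:72273920-72276036), an inhibitor of mTORC1 induced by ATF4 and hypoxia, stood at 77.7 and 49.6 in 143B NC and at 37.5 and 39.1 in HOS NC. Under sgNAT10 it stood at 2.46 and 1.65 in 143B and at 56.0 and 56.4 in HOS. The 143B sgNAT10 libraries were far below the other 6, and the line difference was -4.24 (SE 0.18), after 0.71 in NC. Between labels the difference was -4.92. SNAI1 (2.76 in NC, -1.68 under sgNAT10), IL10RA (3.31 and -1.20) and HOXB8 (3.18 and -1.08) also changed side. Without 143B sgNAT10 replicate 2 the HOXB8 difference under sgNAT10 was -0.85 and was not called. NME1.NME2, a readthrough of neighbouring nucleoside diphosphate kinase genes, went from 3.68 to -1.65. Its values are uncertain, since the HOS NC libraries stood at 4.93 and 0 and reads are shared with both genes.

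The difference between labels was positive for LARP7, USP16 and CAV1 and negative for ESM1. LARP7, a protein of the 7SK small nuclear RNA complex, stood at 5.0 and 8.68 in 143B NC against 50.6 and 46.5 in HOS NC, and at 51.3 and 65.2 against 20.3 and 23.1 under sgNAT10. Its line difference went from -2.68 in NC to 1.37 under sgNAT10, the latter being -0.19 with libraries set to a common sum. USP16, a deubiquitinase of histone H2A, went from -3.30 to 0.60, not called under sgNAT10, where it turned to -0.28 with FPKM as deposited and -0.95 with libraries set to a common sum. CAV1, the main protein of caveolae, stood at 32.2 and 39.4 in 143B NC against 133 and 131 in HOS NC, and at 456 and 514 against 149 and 160.1 under sgNAT10. The lines thus exchanged order, from -1.84 to 1.64, though under quantile normalization the sgNAT10 difference was 0.02 and not called. ESM1, a secreted proteoglycan, remained higher in 143B, with 5.30 in NC and 1.25 under sgNAT10, the latter 0.88 and not called without 143B sgNAT10 replicate 2 and turned to -0.26 with libraries set to a common sum.

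Metabolic genes differed in both directions. Of 30 cholesterol and fatty acid synthesis genes 14 were lower in 143B under sgNAT10 and 2 higher, beside 21.3% and 24.4% of all genes. The median was -0.91. In NC cells 8 of the 30 were lower and 9 higher, beside 25.3% and 28.8% of all genes. After the length and GC correction 16 were lower and 1 higher under sgNAT10, beside 18.6% and 19.6% of all genes. In NC 2 were then lower and 0 higher, beside 10.2% and 10.9% of all genes. HMGCS1, an early enzyme of cholesterol synthesis, differed by -2.70 under sgNAT10 and by -2.69 in NC cells. SCD, a fatty acid desaturase, stood at 39.8 and 50.9 in 143B against 194.5 and 192.3 in HOS under sgNAT10, a difference of -2.08, with 0.29 in NC. Hypoxia and glycolysis genes numbered 19 higher and 4 lower of 31 in NC and 8 and 8 under sgNAT10, the latter near the 24.4% and 21.3% of all genes. Quantile normalization gave 3 higher and 11 lower under sgNAT10, and the length and GC correction 11 higher and 2 lower in NC. EPAS1 at -2.71 and HIF1A at -2.33 were among the lower under sgNAT10.

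ATF4 targets and amino acid supply genes numbered 13 higher and 5 lower of 32 in NC and 6 higher and 9 lower of 31 under sgNAT10, beside 28.8% and 25.3% of all genes in NC and 24.4% and 21.3% under sgNAT10. The length and GC correction left 3 higher and 1 lower in NC, beside 10.9% and 10.2% of all genes. Under sgNAT10 it left 3 higher and 11 lower, beside 19.6% and 18.6% of all genes. Beside DDIT4 and ATF3, the amino acid transporter SLC38A2 was lower in 143B, at -2.18, and the glutamine transporter SLC1A5 higher, at 2.02, an excess that was 0.68 and not called under quantile normalization. Of 35 RNA modification enzymes and readers, 6 were higher and 7 lower. TRMT61A, a transfer RNA methyltransferase subunit and 1 of the 6, stood at 220.3 and 163.0 in 143B against 15.6 and 16.9 in HOS, a difference of 3.47 (SE 0.20).

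Of 29 mitosis genes 13 were lower in 143B under sgNAT10 and 4 higher, against 18 and 5 in NC cells, with medians of -0.91 and -1.75. In NC 25.3% of all genes were lower and 28.8% higher. After the length and GC correction 9 mitosis genes were lower and 4 higher under sgNAT10 and 11 and 2 in NC, with medians of -0.60 and -0.76. The shares of all genes were then 18.6% and 19.6% under sgNAT10 and 10.2% and 10.9% in NC. MAD2L1, a spindle checkpoint protein, stood at 3.60 and 5.22 in 143B and at 47.8 and 47.9 in HOS, a difference of -3.19, while CDC20, the activator of the anaphase-promoting complex, was higher, at 2.99. Of 32 DNA replication genes 9 were higher, led by CDT1 (2.90), and 7 lower, led by DCK (-2.74) and PCNA (-2.31). RB1 and CDKN1B, brakes of the G1 phase, were lower at -2.38 and -2.28, and E2F1 was higher at 2.86. Of 19 p53 targets 6 were higher and 2 lower, with FDXR at 2.60 and RRM2B at -1.66. With either HOS sgNAT10 library left out, 17 p53 targets were tested and 0 were lower. After the length and GC correction 3 were higher and 5 lower, beside 19.6% and 18.6% of all genes. Without the correction 24.4% of all genes were higher and 21.3% lower under sgNAT10.

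HOX genes, which keep positional identity, had 31 tested members, with 11 lower and 6 higher in 143B under sgNAT10 and 1 lower and 9 higher in NC cells, beside 21.3% lower and 24.4% higher of all genes under sgNAT10 and 25.3% and 28.8% in NC. After the length and GC correction 15 were lower and 2 higher under sgNAT10, beside 18.6% and 19.6% of all genes. In NC 3 were then lower and 3 higher, beside 10.2% and 10.9% of all genes, the NC median turning from 0.53 to -0.30. HOXB2 stood at 6.02 and 6.31 in 143B against 32.9 and 32.3 in HOS under sgNAT10, a difference of -2.23 after 1.17 in NC. Its neighbour HOXB4 differed by 2.44 and 2.37. YAP-TEAD genes numbered 10 lower and 4 higher of 20, with TEAD1 at -2.60 and PTPN14, a phosphatase that restrains YAP, at 2.55. Without 143B sgNAT10 replicate 1, 2 YAP-TEAD genes were higher. Interferon-stimulated genes had 6 of 19 members higher and 4 lower, near the shares of all genes, with ISG15 at 3.54 and IFITM1 at -2.75. After the length and GC correction 2 were higher and 4 lower, and without HOS sgNAT10 replicate 2 they had 2 lower. A further 8 of that list, IFIT1 and IFIT2 among them, stood in the HOS table alone.

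Antigen presentation genes were divided within the list. The immunoproteasome genes PSMB8, PSMB9 and PSMB10 were higher in 143B under sgNAT10, at 2.43, 2.80 and 3.29. B2M, the light chain of HLA class I, stood at 110.8 and 179.4 in 143B against 513.5 and 545.2 in HOS, a difference of -1.90, and HLA.B differed by -1.36. The lines did not overlap at any of these genes. Adhesion genes held NEGR1, a neuronal adhesion molecule, at 57.1 and 47.7 in 143B against 2.27 and 2.49 in HOS, a difference of 3.98 (SE 0.17) with 0.23 in NC, and CD9, a tetraspanin, at -2.72. The adhesion list had 6 of 14 members lower and 2 higher, and 3 lower of 12 tested without HOS sgNAT10 replicate 1. Over all genes 21.3% were lower and 24.4% higher. After the length and GC correction the adhesion list had 5 lower and 3 higher, beside 18.6% and 19.6% of all genes, with a median of -0.09. Of the 5 tested caveolae genes 2 were higher, CAV1 and PACSIN3, and 0 lower. Of the 3 tested cancer-testis genes MAGED1 was lower, at -2.57.

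Markers of other cell types were listed to different extents. Their sums are of deposited FPKM, without the median-ratio scaling. Of 8 endothelial markers 1 was listed in 143B, with a summed 0.26 to 0.36 FPKM under sgNAT10, and 4 in HOS, with 3.23 to 3.54. Of 13 blood markers 4 and 5 were listed, summing to 53.1 to 58.4 and 24.0, mostly CD68. PTPRC and CD3E were in neither table. Of 12 epithelial markers 6 and 7 were listed, and they summed to 3769 to 4997 FPKM in 143B and 957 to 966 in HOS, mostly KRT18, which differed by 3.59, while EPCAM differed by -1.72. KRT18 was higher in 143B in NC cells too, at 3.07. Of 10 neural markers 3 were listed in each table, and they summed to 171 to 189 and 44.3 to 47.4, mostly TUBB3. Among these 3, 1 was called higher in 143B under sgNAT10 and 1 lower. The 1 and 3 listed of 8 muscle markers summed to 132 to 157 and 20.7 to 22.2, mostly TNNT1. Of 6 adipose markers 4 and 2 were listed, and they summed to 9.87 to 14.3 and 17.7 to 18.6, mostly PPARG. The part of any other cell type in the line differences was not tested.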

How the data were processed

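The authors deposited 1 table of FPKM per gene for each line, with a column per library. Bowtie2, RSEM, DESeq2 and GRCh38 are named in the submitters' processing notes, versions and settings are not given in the sources used here, and no counts were analysed. RNA was extracted with TRIzol and sequenced on a BGISeq-500, per the labels' protocols. Each table lists genes that exceeded 0.5 FPKM in 2 or more of its libraries.

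Tables were joined by symbol, and libraries were scaled by median ratios (4 sgNAT10, 4 NC or all 8 libraries). Genes reaching 1 FPKM in 2 or more libraries of a fit were tested on log2(scaled FPKM + 1) with limma 3.58.1 in R 4.3.3, with an intensity trend and Benjamini-Hochberg adjustment over all genes tested. The correction for length and GC subtracted, in each library, natural splines with 4 degrees of freedom in each property, taken from GENCODE 29 transcripts of at least 200 bases. The fits were tested on simulated data. Tables were made with Python 3.11.15 and pandas 2.3.3, and figures with matplotlib 3.10.9.

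The genes, the 34 lists and the tests were chosen with earlier results of these data known. Named genes were NAT10, the 20 largest called differences in each direction, the 10 largest in each direction under both labels, the 10 largest differences between labels on each side, up to 6 members per list by size, and the 8 highest genes found in 1 table alone. The 20 largest were taken among called genes whose sgNAT10 libraries did not overlap between lines. Other names are stated as chosen after their values were seen, or are counted members of a list. Alternatives were the pseudocount, filter, scaling, moderation, composition correction, a replicate block and each library left out.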

Additional observations from a re-analysis of the deposited data

Results flagged for a closer look

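The difference of the line differences, sgNAT10 minus NC, was tested with all 8 libraries and limma, and it was called for 4550 genes. On the log2 scale, the largest called values where the lines lay closer under sgNAT10 were -5.31 for NME1.NME2, -5.09 for PLAU, -4.76 for CDKN1A, -4.49 for IL10RA, -4.42 for SNAI1, -4.24 for HOXB8, 4.07 for LARP7, -4.02 for ESM1, -3.95 for MMP1 and 3.92 for USP16. MMP1 was called higher in 143B under both labels. ESM1 was too, but under sgNAT10 it was not called without 143B sgNAT10 replicate 2 (0.88) and turned to -0.26 with libraries set to a common sum. PLAU was not called under sgNAT10 (0.61) and turned to -0.28 with FPKM as deposited and -0.95 with a common sum. For LARP7, SNAI1, IL10RA, HOXB8 and NME1.NME2 the lines were called in opposite orders under the labels, the LARP7 difference under sgNAT10 turning to -0.19 with a common sum.

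The largest called values where the lines lay farther apart under sgNAT10 were 7.50 for MTRNR2L3, 6.6 for MTRNR2L8, 6.56 for MTRNR2L1, 6.46 for MTRNR2L2, 6.07 for MTRNR2L6, 5.75 for LOC105369205, 5.31 for HIST1H4C, 5.19 for MTRNR2L9, 4.96 for C5orf63 and -4.92 for DDIT4. MTRNR2L8 stood at 869 and 930 scaled FPKM in 143B NC, 3020 and 2249 in 143B sgNAT10 and 2254 and 2068 in HOS NC. In the HOS sgNAT10 libraries it stood at 66.1 and 60.9, apart from the other 6 libraries. The MTRNR2L and histone genes have near-identical copies, so the division of reads among them is uncertain.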

How the results depend on the processing

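With 2 libraries a group and no counts, single calls rest on a pooled estimate of the spread, and the line cannot be told apart from the table. Over the 240 gene results, 4319 recomputed values kept direction and call, 125 lost the call, 45 gained it and 36 changed sign; the cause of these changes was not tested.

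A pseudocount of 5 gave 3105 calls under sgNAT10 (1070 lower), 3975 in NC (1610 lower), 2542 for the difference between labels (1447 and 1095) and 1866 under both labels. FPKM as deposited gave 1296 higher and 4892 lower under sgNAT10, and 1150 and 3526 for the difference between labels. Libraries set to a common sum gave 630 and 6926, and 490 and 5048. The length and GC correction, with or without the replicate block, gave 2373 calls in NC (1223 and 1150) and 1279 under both labels. Adjusted p alone gave 8528 calls under sgNAT10 (4274 and 4254) and 5266 under both labels. With 1 library left out, calls ranged from 4717 to 5552 under sgNAT10 (2487 to 2790 higher, 2008 to 2762 lower) and from 3995 to 6641 in NC (2152 to 3346 higher, 1843 to 3295 lower). The lowest NC values, 3995, 2152 and 1843, were without HOS NC replicate 1. For the difference between labels the range was 3743 to 5007 (1886 to 2508 and 1803 to 2499), and under both labels 2222 to 3406.

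The mean distance between sgNAT10 lines was 1.62 with a pseudocount of 0.1, 1.07 with 5, 1.49 with a filter at 5 FPKM, 1.49 as deposited, 1.795 with a common sum, 1.28 under quantile normalization and 1.20 after correction. It ranged from 1.29 to 1.46 with 1 library left out. For NC the values were 1.63 with a pseudocount of 0.1, 1.05 with 5, 0.910 after correction and 1.20 to 1.58 with 1 library left out.

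Line differences under sgNAT10 that changed sign with FPKM as deposited and with a common sum were those of PLAU (-0.28 and -0.95), USP16 (-0.28 and -0.95), ERBB3 (-0.039 and -0.44), MAGED2 (-0.025 and -0.69), PRAME (-0.90 and -1.58), CAV2 (-0.79 and -1.45), CLDN3 (-0.62 and -1.23) and ENO2 (-0.17 and -0.80). With a common sum alone they were those of LARP7 (-0.19), ESM1 (-0.26), MSX1 (-0.12), HLA.E (-0.17), PLK3 (-0.019), KRT8 (-0.26) and CEBPA (-0.23). Quantile normalization turned TPM2 (-0.061), PRAME (-1.06), CAV2 (-0.27) and KRT8 (-0.47), and the correction turned PRAME (-0.11), CLDN3 (-1.63) and CEBPA (-0.26). With 1 library left out, PRAME ranged from -0.058 (without 143B sgNAT10 replicate 1) to 0.075 and was also below 0 without HOS sgNAT10 replicate 1, and EHD2 ranged from -0.72 to 0.033 (without 143B sgNAT10 replicate 2).

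A block for the replicate number gave 2785 higher and 2426 lower under sgNAT10, 3251 and 2856 in NC, and 2385 and 2245 for the difference between labels, and it changed no call of the 240 gene results. Deviations of same-numbered libraries correlated at 0.17 between the sgNAT10 lines and -0.64 between the NC lines. Between the labels of a line they correlated at 0.61 in 143B and -0.12 in HOS. The signs differed, so the numbers do not establish pairs across the groups. A crossed block, chosen after seeing the data, gave 3271 and 2872 in NC.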
